A study of Mus musculus with 23 samples.

Results

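The 10 smooth muscle and contractile genes Acta1, Acta2, Actg2, Cnn1, Tagln, Myl9, Tpm1, Tpm2, Mylk and Tnnt2 were followed over 23 Affymetrix arrays. They were chosen by name from the 12393 genes that a probe set (the group of probes that reads one transcript) measured under a single symbol. They had 19 such probe sets, and the main probe set of a gene was the one with the highest mean over all arrays. Values are the deposited Robust Multichip Average (RMA) intensity on a log2 scale, where a difference of 1 is a doubling.

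The arrays fell into 6 groups. Mouse embryonic fibroblasts (MEFs) at E13.5 were Ezh2-deficient (3 arrays), with 3 wild-type arrays as a first control set, or Snf5 Ezh2-deficient (3 arrays), with 3 wild-type arrays as a second control set. Both deficient lines were conditionally inactivated, and the driver of the inactivation was not stated in the sources at hand. CD8+ T cells were purified from Snf5-deficient lymphomas (5 arrays) and from wild-type mice (6 arrays), all of mice aged 10 to 15 weeks. Ezh2 methylates histone H3 within the Polycomb repressive complex, and Snf5, the product of Smarcb1, belongs to the core of the nucleosome remodeller SWI/SNF. The embryonic cells are called fibroblasts below.

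Smooth muscle and contractile fibroblasts generate force when myosin pulls on actin filaments. Myosin light chain kinase phosphorylates the regulatory light chain of myosin, and tropomyosin, calponin and transgelin bind along the actin filament. Many of these genes are transcribed through serum response factor (SRF), which binds a short element called the CArG box and works with the coactivators of the myocardin family. Fibroblasts in culture commonly express smooth muscle actin, and cardiac troponin T belongs to the striated sarcomere.

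The element was looked for in the promoters because it is the usual binding sequence of SRF. RefSeq promoters (GRCm38.p6), running from 250 bases before to 50 bases after a gene's start, were matched by symbol for 8 of the 10 genes. Over both strands, an exact CArG box of 10 bases stood in 1.63% of all 32851 promoters, and 21.1% held one with at most 1 mismatch. Among the contractile genes 2 held an exact match, Acta1 and Myl9, and Acta2, Tpm1 and Tnnt2 held one with 1 mismatch. The stretches of 50 bases around the best or nearest match of 4 genes are shown 5′ to 3′ on the gene's strand, with the match in capitals. They lie at chr8:123894819-123894868 (minus strand) for Acta1, chr19:34255428-34255477 (minus strand) for Acta2, chr2:156775283-156775332 (plus strand) for Myl9 and chr1:135836176-135836225 (plus strand) for Tnnt2.
Acta1: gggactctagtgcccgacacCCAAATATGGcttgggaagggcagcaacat
Acta2: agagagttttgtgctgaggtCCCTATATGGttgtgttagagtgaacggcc
Myl9: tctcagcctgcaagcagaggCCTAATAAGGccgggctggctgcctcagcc
Tnnt2: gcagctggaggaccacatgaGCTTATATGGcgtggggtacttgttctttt
A match describes the letters only. As given below, the exact match of Acta1 stood in a gene that fell in Snf5 Ezh2-deficient fibroblasts, and that of Myl9 in a gene that did not pass the test there.

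Several facts about the arrays bear on all values. The 3 wild-type arrays named for the second set repeated the hybridisations of the first set: over 7349 bright probe sets, arrays of the same number differed by an SD of 0.0266 to 0.0287, and arrays of different numbers by 0.141 to 0.163. They were counted once, so that 9 distinct MEF arrays entered the tests and both mutant lines shared their controls. Ezh2-deficient arrays 2 and 3 read 9.56 and 9.52 for Xist, the RNA of the inactive X chromosome, against 6.45 on array 1 and 6.19 to 6.37 on the wild-type arrays of that set. Wild-type CD8+ arrays 1 and 6 stood apart, with Cd8a at 10.7 and 10.6 against 13.3 to 13.6 on the other 4, and with a mean of 11.5 and 11.3 over 11 macrophage markers against 5.94 to 7.34. Smarcb1 read 6.56 to 6.83 in Snf5 Ezh2-deficient fibroblasts, against 9.08 to 9.25 in wild-type fibroblasts of that set, and Ezh2 read 5.63 to 5.81 in Ezh2-deficient fibroblasts, against 7.81 to 7.95 in wild-type fibroblasts. Ezh2 read 6.65, 6.10 and 6.38 in Snf5 Ezh2-deficient fibroblasts, against 8.02 to 8.07 in wild-type fibroblasts of that set, so it lay below the controls in both lines, with a higher level in this one. In the lymphoma cells Smarcb1 read 5.64 to 8.67, against 10.4 to 11.5 in wild-type CD8+ cells, and Cd8a read 13.1 to 13.6 in the lymphoma cells. The MEF arrays carried their label's markers: 12 fibroblast markers averaged between 10.99 and 11.62 on every MEF array. The labels call the arrays of a group biological replicates. Separate cultures or animals behind the replicates are not described, so a p-value here reflects only how these samples spread.

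Snf5 Ezh2-deficient fibroblasts had lower skeletal actin, cardiac troponin T, calponin and transgelin and higher enteric actin than wild-type fibroblasts, while the difference of Acta2, the smooth muscle actin, was close to 0. In Snf5 Ezh2-deficient fibroblasts, 4 of the 10 genes fell (Acta1, Cnn1, Tagln and Tnnt2), 1 rose (Actg2) and 5 did not pass. Of all genes, 27.5% passed this comparison in either direction, 13.2% higher and 14.3% lower. The groups did not overlap for 6 of the 10 genes, where 43.2% of all genes did not overlap. The median log2 change of the 10 genes was -0.23, beside -0.0028 over all genes. In these bulk cultures, fewer cells of a type and less RNA per cell cannot be told apart. The p-values come from limma's moderated test with Benjamini-Hochberg adjustment over all 22626 probe sets, with a threshold of 0.05.

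**Figure D1:**
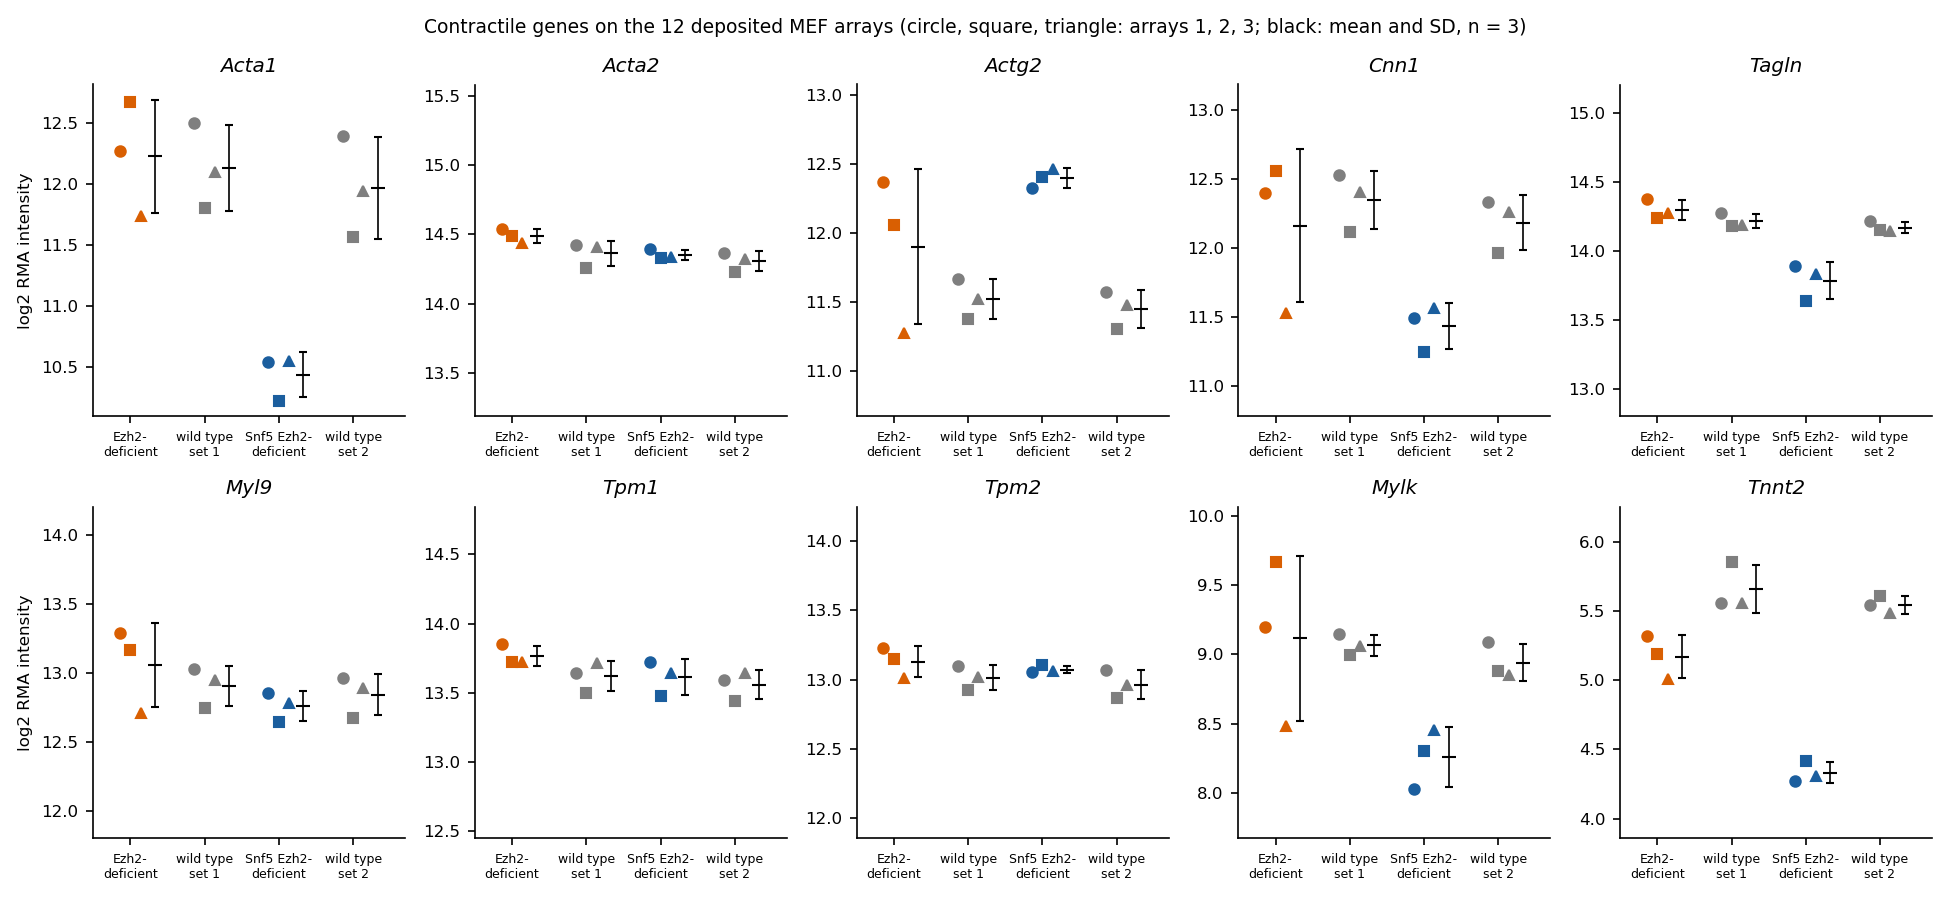
Log2 RMA intensity (vertical axes, each with its own range) of the 10 contractile genes on the 12 deposited MEF arrays, by group; symbols are single arrays, and black bars are the mean and SD of 3 arrays. Acta1 and Tnnt2 lie lower on all 3 Snf5 Ezh2-deficient arrays than on any wild-type array, Actg2 lies higher, and Ezh2-deficient array 3 (triangle) is the lowest of its group for 8 of the 10 genes.

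Among the actins, Acta1, which encodes the actin of skeletal muscle thin filaments, read 10.54, 10.22 and 10.55 in Snf5 Ezh2-deficient fibroblasts, against 12.39, 11.56 and 11.94 in wild-type fibroblasts of the second set. Every Snf5 Ezh2-deficient array lay below every wild-type array. Acta1 was 2.89-fold lower (log2 change -1.53, SE 0.233, limma adjusted p = 0.00089). In Ezh2-deficient fibroblasts it read 12.27, 12.67 and 11.74, against 12.50, 11.80 and 12.10 in wild-type fibroblasts of the first set, and these groups overlapped (0.09, adjusted p = 0.835). Array 2 was the highest and array 3 the lowest of the Ezh2-deficient arrays.

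Acta2, the actin of vascular smooth muscle and a common marker of contractile fibroblasts, read 14.39, 14.33 and 14.33 in Snf5 Ezh2-deficient fibroblasts, against 14.37, 14.23 and 14.32 in wild-type fibroblasts. The groups overlapped, and the log2 change of 0.04 had a 95% confidence interval of -0.0914 to 0.179 (limma adjusted p = 0.666). Ezh2-deficient fibroblasts gave 14.54, 14.49 and 14.44, against 14.43, 14.26 and 14.41 in wild-type fibroblasts. All 3 Ezh2-deficient arrays lay above all 3 wild-type arrays, but the change of 0.13 did not pass (adjusted p = 0.243). These signals stood at or above percentile 99.95 of the values of their arrays, so they were near the top of the scale. A further, dimmer Acta2 probe set changed by 0.11 in Snf5 Ezh2-deficient fibroblasts (adjusted p = 0.799).

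Actg2, the enteric smooth muscle actin, read 12.32, 12.41 and 12.46 in Snf5 Ezh2-deficient fibroblasts, against 11.57, 11.30 and 11.47 in wild-type fibroblasts. The groups did not overlap, and it was 1.93-fold higher (log2 change 0.95, SE 0.216, limma adjusted p = 0.00847). Its Ezh2-deficient values were 12.37, 12.05 and 11.28, against 11.66, 11.38 and 11.52 in wild-type fibroblasts. Arrays 1 and 2 lay above and array 3 below every wild-type array, and the change of 0.38 did not pass (adjusted p = 0.313). Without Ezh2-deficient array 3 the change was 0.69 and passed (adjusted p = 0.0211), and without Ezh2-deficient arrays 2 and 3 it was 0.85 (adjusted p = 0.0211). The coding sequences of actin genes are closely alike, and which letters the probes read was not examined here.

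Among the proteins that bind the actin filament, Cnn1, the smooth muscle calponin, read 11.49, 11.25 and 11.57 in Snf5 Ezh2-deficient fibroblasts, against 12.33, 11.96 and 12.26 in wild-type fibroblasts. Every Snf5 Ezh2-deficient array was lower, and Cnn1 fell 1.68-fold (log2 change -0.75, SE 0.228, limma adjusted p = 0.0347). That call ended, at adjusted p = 0.056 to 0.12, without any one of wild-type arrays 1 and 3 or Snf5 Ezh2-deficient arrays 1, 2 and 3. Cnn1 in Ezh2-deficient fibroblasts read 12.40, 12.56 and 11.53, against 12.53, 12.12 and 12.41 in wild-type fibroblasts. The groups overlapped, array 3 was far below the other two Ezh2-deficient arrays, and the change of -0.19 did not pass (adjusted p = 0.646).

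Tagln, which encodes the actin-bundling protein transgelin (SM22), read 13.89, 13.64 and 13.83 in Snf5 Ezh2-deficient fibroblasts, against 14.22, 14.16 and 14.14 in wild-type fibroblasts. No array of one group reached the other, and Tagln fell 1.31-fold (log2 change -0.38, SE 0.0751, limma adjusted p = 0.0037). With Ezh2 alone lost, Tagln read 14.38, 14.24 and 14.27, against 14.28, 14.18 and 14.19 in wild-type fibroblasts. These groups overlapped and the change of 0.08 did not pass (adjusted p = 0.547).

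The tropomyosins, which wind along the actin filament, differed by probe set. On its main probe set Tpm1 read 13.72, 13.47 and 13.64 in Snf5 Ezh2-deficient fibroblasts, against 13.59, 13.44 and 13.64 in wild-type fibroblasts, and Tpm2 read 13.05, 13.10 and 13.06, against 13.07, 12.86 and 12.96. Both genes overlapped between the groups, with log2 changes of 0.06 (limma adjusted p = 0.685) for Tpm1 and 0.11 (limma adjusted p = 0.322) for Tpm2. Of the further probe sets, 1 of 2 for Tpm1 rose (0.69, adjusted p = 0.0148). For Tpm2, 2 of 3 rose, by 0.70 (adjusted p = 0.000326) and by 0.81 (adjusted p = 0.0286), and the mean over its 4 probe sets rose by 0.44 (adjusted p = 0.00412). Tropomyosin genes make several transcripts by alternative splicing and alternative ends, and which of them each probe set reads was not examined here.

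The main probe set of Tpm1 in Ezh2-deficient fibroblasts read 13.85, 13.72 and 13.72, against 13.64, 13.50 and 13.71 in wild-type fibroblasts. Tpm2 read 13.23, 13.15 and 13.01, against 13.10, 12.92 and 13.02. The Tpm1 groups did not overlap and the Tpm2 groups did, and neither log2 change passed, at 0.15 for Tpm1 (limma adjusted p = 0.305) and 0.12 for Tpm2 (limma adjusted p = 0.348). Their 5 further probe sets did not pass there either, with log2 changes between 0.11 and 0.41.

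**Figure D2:**
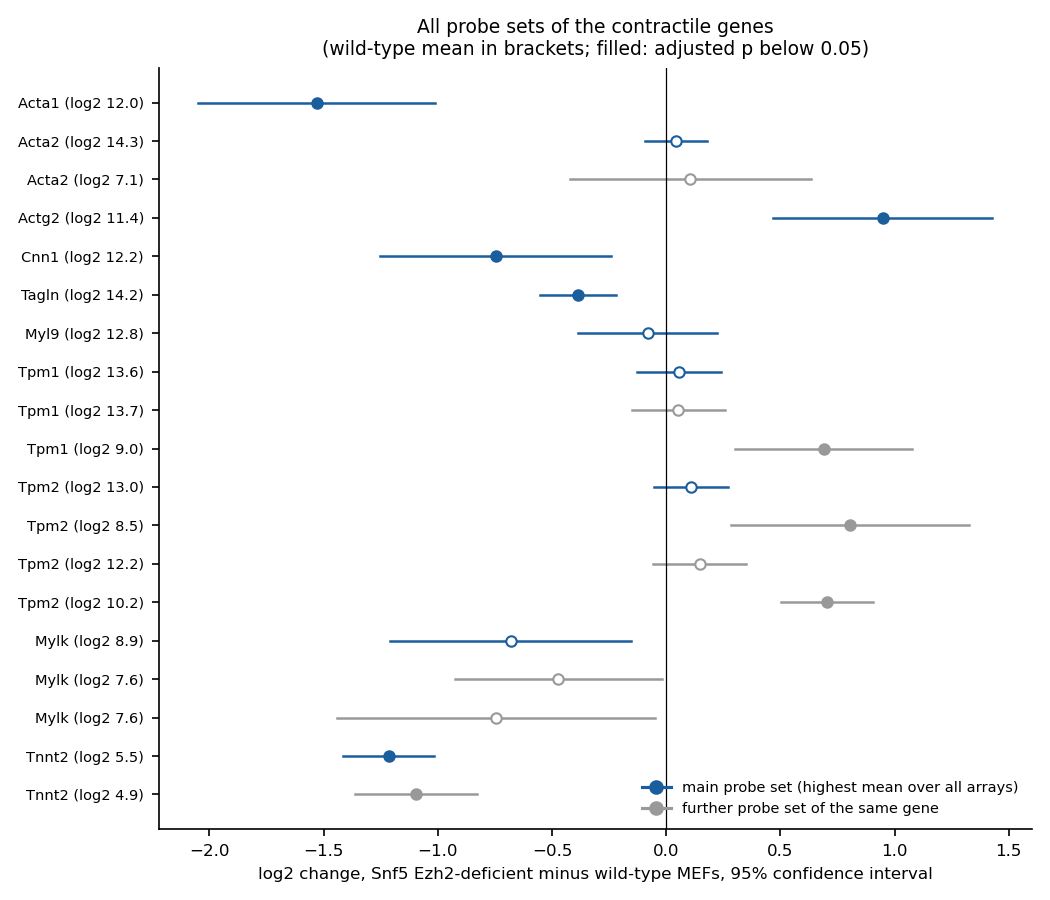
Log2 change with 95% confidence interval (horizontal axis, Snf5 Ezh2-deficient minus wild-type fibroblasts) for each of the 19 probe sets of the contractile genes; labels give the gene and the probe set's wild-type mean, and filled points passed at adjusted p below 0.05. The main probe sets of Tpm1 and Tpm2 lie near 0 while dimmer ones lie at 0.69, 0.70 and 0.81, and both Tnnt2 probe sets lie below -1.

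Neither gene of the myosin side passed against wild type in either mutant line. Myl9, the regulatory light chain of smooth muscle myosin, read 12.86, 12.65 and 12.78 in Snf5 Ezh2-deficient fibroblasts, against 12.97, 12.68 and 12.89 in wild-type fibroblasts, and the groups overlapped (log2 change -0.08, limma adjusted p = 0.729). Myl9 in Ezh2-deficient fibroblasts read 13.29, 13.17 and 12.71, against 13.03, 12.75 and 12.95. Array 3 was again the lowest, and the change of 0.15 did not pass (adjusted p = 0.536).

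Mylk, the kinase that phosphorylates that light chain, read 8.02, 8.30 and 8.45 in Snf5 Ezh2-deficient fibroblasts, against 9.09, 8.88 and 8.85 in wild-type fibroblasts. The ranges were apart, but the log2 change of -0.68 (SE 0.238) did not pass (limma adjusted p = 0.0598). It passed when the second set's 6 arrays were fitted alone (adjusted p = 0.003) and with array weights (adjusted p = 0.021). It also passed with all 12 deposited arrays (adjusted p = 0.0382), which enter both copies of each wild-type hybridisation. Whichever single array was left out, Mylk did not pass (limma adjusted p = 0.0719 to 0.178). Its 2 dimmer probe sets changed by -0.47 and -0.75, and neither passed (adjusted p = 0.123 and 0.114). Mylk in Ezh2-deficient fibroblasts read 9.20, 9.67 and 8.48, against 9.15, 8.99 and 9.06 in wild-type fibroblasts, with array 2 above and array 3 below the other arrays (0.05, adjusted p = 0.919).

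Tnnt2, the cardiac troponin T that anchors the troponin complex to tropomyosin, was dim throughout. It read 4.27, 4.42 and 4.31 in Snf5 Ezh2-deficient fibroblasts, against 5.54, 5.61 and 5.49 in wild-type fibroblasts, and 5.32, 5.19 and 5.01 in Ezh2-deficient fibroblasts, against 5.56, 5.86 and 5.56 in wild-type fibroblasts. Neither mutant line overlapped its controls. Tnnt2 was lower in Snf5 Ezh2-deficient fibroblasts (log2 change -1.22, SE 0.0896, limma adjusted p = 1.17e-05) and in Ezh2-deficient fibroblasts (-0.49, SE 0.0896, adjusted p = 0.0224).

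All 3 arrays of each mutant line had Tnnt2 within the lowest 25% of their values, and the wild-type arrays were at percentiles 25.4 to 29.8, so all of its changes were measured close to the floor of the scale and no fold is given. The second Tnnt2 probe set was lower by 1.10 in Snf5 Ezh2-deficient fibroblasts as well (log2 change -1.10, adjusted p = 0.000128), and its change of -0.51 in Ezh2-deficient fibroblasts did not pass (adjusted p = 0.0507). The call in Ezh2-deficient fibroblasts ended at an adjusted p of 0.111 when wild-type array 2 was left out, of 0.0501 for wild-type array 3, of 0.0525 for Ezh2-deficient array 3 and of 0.173 for Ezh2-deficient arrays 2 and 3 together, and at 0.0696 when the first set's 6 arrays were fitted alone.

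Across Ezh2-deficient fibroblasts, then, 1 of the 10 genes passed, Tnnt2, which fell, and 0 rose, where 3.49% of all genes passed by limma in either direction (1.02% higher and 2.47% lower). Without adjustment for the number of probe sets these counts were also 1 and 0. The groups did not overlap for 3 of the 10 genes (Acta2, Tpm1 and Tnnt2), where 32.7% of all genes did not overlap. The median log2 change of the 10 genes was 0.10, beside 0.004 over all genes, and 8 of the 10 changes were above 0. Within the groups many of the genes were lowest on the same array. Ezh2-deficient array 3 was the lowest of its group for 8 of the 10 genes and wild-type array 2 for 8 of the 10. The share of all genes that were lowest on these arrays was not counted. With group means removed, some pairs varied together, such as Cnn1 and Myl9 (Pearson r = 0.935). Others did not, such as Tagln and Mylk (r = -0.122). On Ezh2-deficient array 3 Myh11, the heavy chain of smooth muscle myosin, read 8.13, against 9.67 and 9.52 on Ezh2-deficient arrays 1 and 2. The mean of 9 pericyte and vascular smooth muscle markers was 7.42 on that array, against 7.74 and 7.64 on arrays 1 and 2, and its part in the results was not tested.

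The mutant lines were also set against each other, after the second set had been moved by the offset between the 2 copies of each control array, which lay between -0.165 and -0.0465 for the 10 genes. Because the controls are shared, this is also the test of the difference between the lines' changes from wild type. In Snf5 Ezh2-deficient fibroblasts, 4 of the 10 genes were lower than in Ezh2-deficient fibroblasts and 0 were higher by limma (5 and 1 without adjustment), where 29.9% of all genes passed (16.3% higher and 13.6% lower). The groups did not overlap for 4 of the 10 (Acta1, Actg2, Tagln and Tnnt2), where 44.2% of all genes did not overlap. The median log2 change was -0.35, beside -0.026 over all genes.

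Acta1 showed a large difference, with means of 10.6 in the Snf5 Ezh2-deficient and 12.2 in Ezh2-deficient fibroblasts on the moved scale (3.08-fold lower, log2 change -1.62, limma adjusted p = 0.000659). Tagln was 1.38-fold lower (-0.46, adjusted p = 0.00134). Tnnt2 was lower as well (-0.73, adjusted p = 0.000256), but all 6 arrays had it in the lowest 25% of their values, and no fold is given. Mylk was 1.66-fold lower (-0.73, adjusted p = 0.0439), although its groups overlapped through Ezh2-deficient array 3. The Mylk call ended, at adjusted p = 0.0599 to 0.138, without any one of Ezh2-deficient arrays 1 and 2 or Snf5 Ezh2-deficient arrays 1, 2 and 3. Without Ezh2-deficient array 3 Mylk (adjusted p = 0.00126), Cnn1 (-0.88, adjusted p = 0.00134) and Myl9 (-0.40, adjusted p = 0.0183) were all lower.

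Actg2 was 0.57 higher in the Snf5 Ezh2-deficient than in Ezh2-deficient fibroblasts and did not pass (limma adjusted p = 0.0764), but it passed without Ezh2-deficient array 1 (0.80, adjusted p = 0.0147). Cnn1 differed by -0.56 (adjusted p = 0.0946) and Myl9 by -0.23 (adjusted p = 0.245) over all arrays. On the main probe sets, the differences of Acta2 (-0.08), Tpm1 (-0.09) and Tpm2 (-0.01) had intervals that reached no further than -0.273 and 0.152. A further Tpm2 probe set was 0.53 higher and passed (limma adjusted p = 0.00185), with groups that did not overlap. Another was 0.52 higher and did not pass (adjusted p = 0.132), and the remaining Tpm2 probe set changed by -0.03 (adjusted p = 0.856). The order of the groups was thus wild type, Ezh2-deficient, Snf5 Ezh2-deficient from high to low for Tnnt2, near the floor of the scale; each step passed over all arrays, and the first one, from wild type to Ezh2-deficient, lost its call in the settings given above. For Actg2 it was the reverse, and only the outer step passed.

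**Figure D3:**
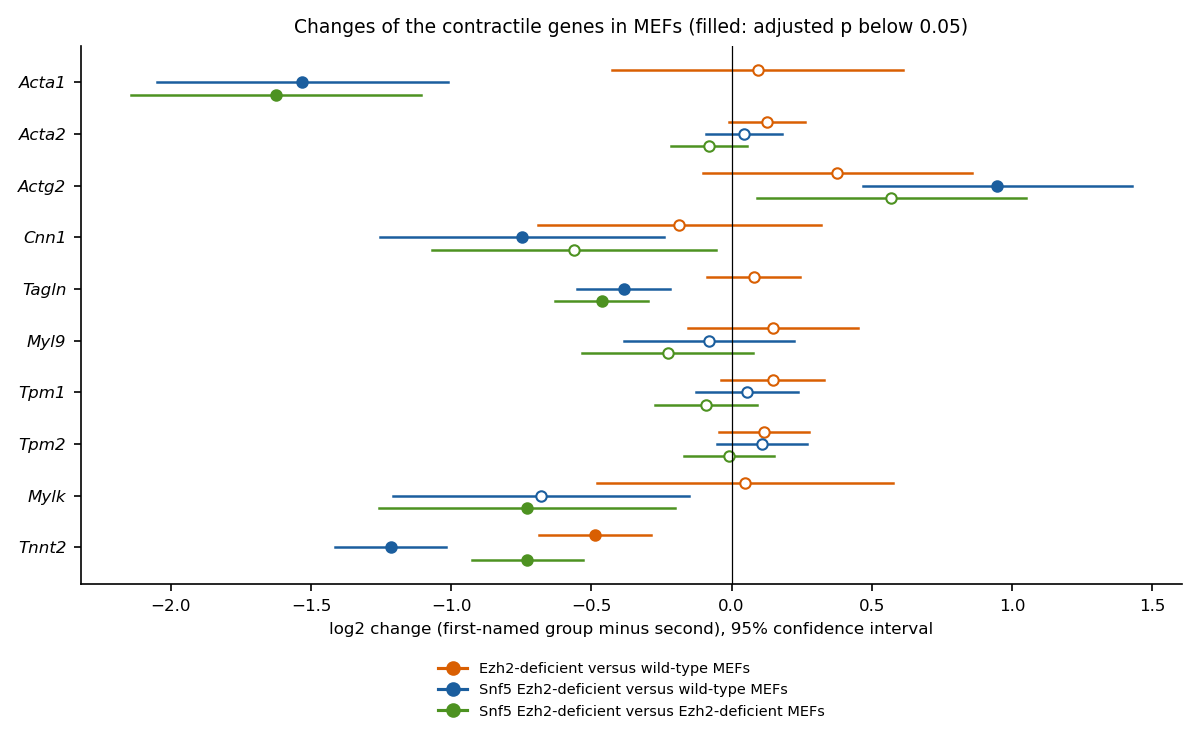
Log2 change with 95% confidence interval (horizontal axis) of each contractile gene in the 3 MEF comparisons, the first-named group minus the second; filled points passed at adjusted p below 0.05. Each gene is drawn by its main probe set. Acta1 and Tagln are lower in Snf5 Ezh2-deficient fibroblasts against either other group, and Tnnt2 is lower in all 3 comparisons. Acta2, Tpm1 and Tpm2 lie near 0 in all 3.

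Other genes of the pathway were described from lists. Of 29 measured smooth muscle and SRF target genes beyond the 10, 13 fell, 4 rose and 12 did not pass in Snf5 Ezh2-deficient fibroblasts, with a median log2 change of -0.16. The share that passed was 58.6%, beside 27.5% of all genes. Itga5, the fibronectin receptor subunit, fell (log2 change -1.24, limma adjusted p = 0.000164). The genes that rose by most were Itga8, another integrin subunit (1.47, adjusted p = 1.2e-05), Myh11 (0.98, adjusted p = 0.0486) and Synpo2, an actin-bundling protein of the Z-disc (0.96, adjusted p = 4.45e-05). The Myh11 call ended whichever of the 6 arrays was left out (adjusted p = 0.0714 to 0.146). Smoothelin, encoded by Smtn, and leiomodin 1, encoded by Lmod1, are smooth muscle proteins; both genes were among the 13 that fell, at -0.46 and -0.47. In Ezh2-deficient fibroblasts 1 of the 29 (3.45%, beside 3.49% of all genes) rose, Synpo2 (0.46, adjusted p = 0.0267), and 0 fell by limma (8 and 0 without adjustment), with a median of 0.10. Leaving out array 2 or 3 of the controls, or array 1 of the Ezh2-deficient line, ended the Synpo2 call (adjusted p = 0.0738 to 0.124). Both comparisons used the same control hybridisations.

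Set against Ezh2-deficient fibroblasts directly, 18 of the 29 were lower in Snf5 Ezh2-deficient fibroblasts and 3 were higher (72.4%, beside 29.9% of all genes), with a median of -0.33. Itga5 (-1.35), the Z-disc gene Ldb3 (-1.27) and the transgelin relative Tagln2 (-0.93) were lower, and Itga8 (1.07) was higher, each at a limma adjusted p of 0.000109 or less. Des, which encodes the muscle intermediate filament protein desmin, was lower by 0.61 in that comparison (log2 change -0.61, adjusted p = 0.00208). Ldb3 was dim, at a mean of 5.49 on the moved scale in Snf5 Ezh2-deficient fibroblasts and 6.76 in Ezh2-deficient fibroblasts.

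Among 18 measured SRF cofactors and regulators, 3 rose and 2 fell in Snf5 Ezh2-deficient fibroblasts (27.8%, beside 27.5% of all genes). Klf4, a factor known to restrain smooth muscle genes, rose (log2 change 0.69, limma adjusted p = 0.00102), as did the Notch target Hey1 (0.60, adjusted p = 0.00322) and Mef2a (0.41, adjusted p = 0.00179). Srf itself read 9.21, 9.07 and 9.09 in Snf5 Ezh2-deficient fibroblasts, against 9.40, 9.30 and 9.42 in wild-type fibroblasts. All 3 Snf5 Ezh2-deficient arrays lay below the wild-type arrays, and Srf fell (-0.25, adjusted p = 0.0197). That call ended, at adjusted p = 0.0575 to 0.0757, without any one of wild-type arrays 1 and 3 or Snf5 Ezh2-deficient arrays 2 and 3. The call of Hey2, the other gene of this list that fell (-0.24, adjusted p = 0.0354), ended without 4 of the 6 arrays in turn. Myocd, the coactivator myocardin, changed by 0.01 (adjusted p = 0.968), at levels of 5.84 to 6.03 in Snf5 Ezh2-deficient fibroblasts and 5.86 to 6.04 in wild-type fibroblasts.

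The kinase and phosphatase genes that set light chain phosphorylation counted 16, of which 6 fell and 3 rose in Snf5 Ezh2-deficient fibroblasts (56.2%, beside 27.5% of all genes). Their median log2 change was -0.21. Prkg2, a cGMP-dependent protein kinase, fell (-2.74, limma adjusted p = 2.15e-06), and its relative Prkg1 rose (0.51, adjusted p = 0.00288). Limk1, which phosphorylates cofilin, fell (-0.77, adjusted p = 0.0005) while Limk2 rose (0.89, adjusted p = 4.63e-05). Among 20 nonmuscle actomyosin genes 3 fell (Pfn2, Tmod3 and Tpm4) and 1 rose (Lima1), a share of 20% that is below that of all genes, with a median of -0.03. Tpm4, a tropomyosin of nonmuscle cells, changed by -0.46 (adjusted p = 0.000264).

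Of 36 striated muscle sarcomere genes 2 fell and 3 rose in Snf5 Ezh2-deficient fibroblasts, and the 5 changes lay between -0.24 and 0.43. That share of 13.9% is below the 27.5% of all genes, and leaving out single arrays gave 0 to 3 falls. Those that rose were the troponin genes Tnni3 (log2 change 0.43) and Tnni2 (0.28) and the myosin gene Myh2 (0.38), at means of 5.08, 7.29 and 5.77, while the sarcomere genes Acta1 and Tnnt2 fell as given above. Of 23 TGF-beta pathway genes, whose ligands can induce contractile genes in fibroblasts, 7 fell and 6 rose (56.5%). Tgfb1 fell (-0.71, limma adjusted p = 0.000347) and Tgfb3 rose (0.98, adjusted p = 0.00038). In Ezh2-deficient fibroblasts Tgfb3 rose as well (0.56, adjusted p = 0.0468), and the receptor gene Acvrl1 fell (-0.66, adjusted p = 0.0126). The Tgfb3 call there ended without 5 of the 6 arrays in turn, all but Ezh2-deficient array 3 (adjusted p = 0.0599 to 0.167), and the Acvrl1 call without wild-type array 2 (adjusted p = 0.0573). Without Ezh2-deficient arrays 2 and 3 together, Tgfb3, Acvrl1 and Synpo2 passed, at changes of 0.86, -0.64 and 0.64 (adjusted p = 0.0354, 0.0356 and 0.0422).

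**Figure D4:**
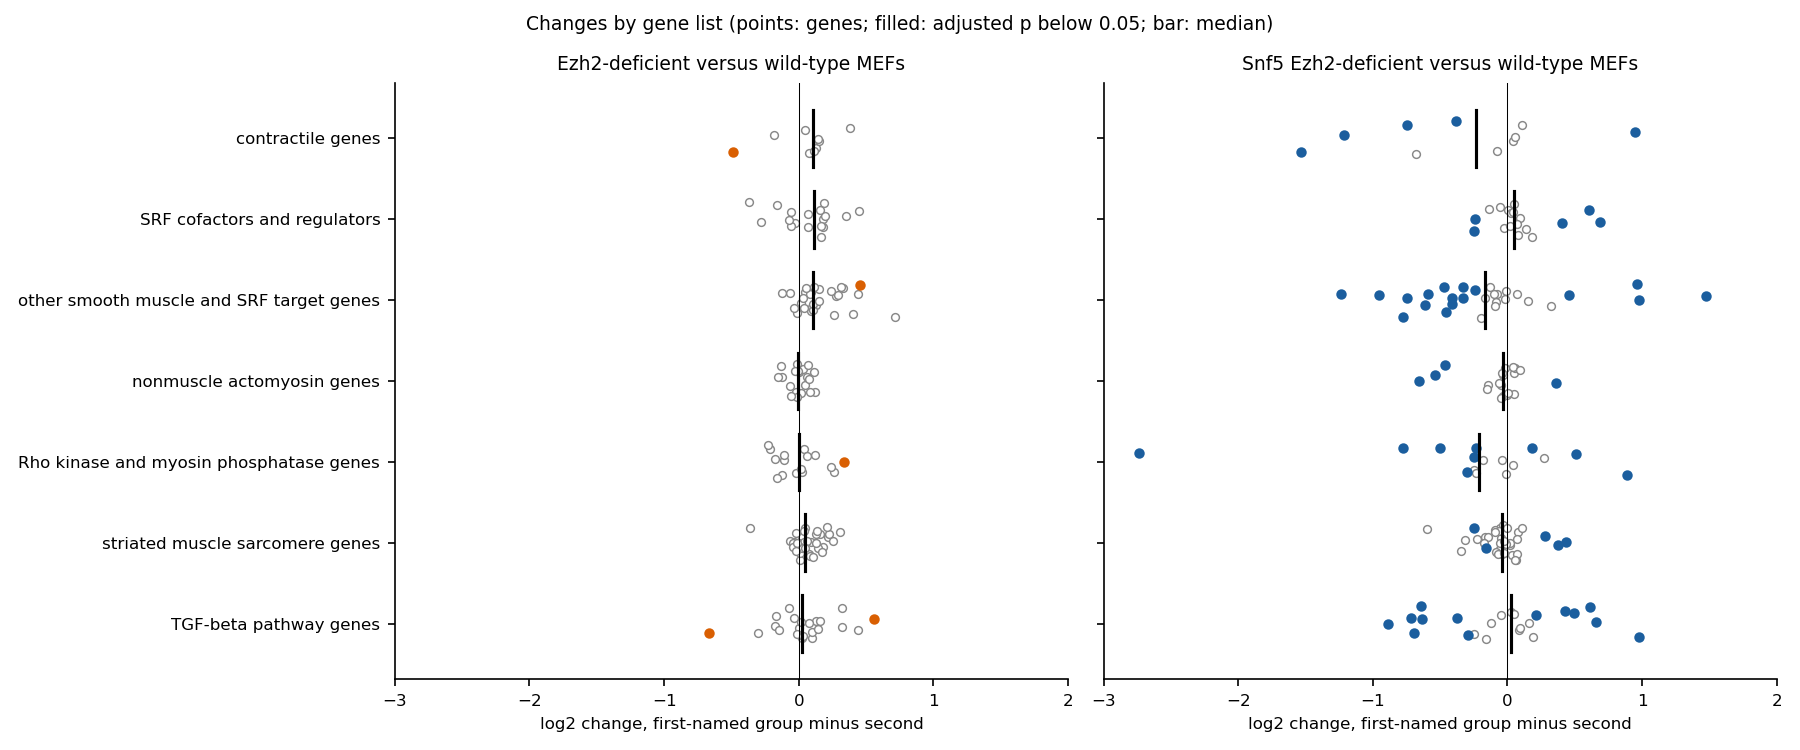
Log2 changes (horizontal axes, first-named group minus second) of the contractile genes and of 6 further gene lists in the Ezh2-deficient and the Snf5 Ezh2-deficient fibroblasts, both against the same wild-type hybridisations; points are genes, filled where adjusted p was below 0.05, and bars are list medians. The contractile genes and the other SRF targets have medians of -0.23 and -0.16 in Snf5 Ezh2-deficient fibroblasts and of 0.10 and 0.10 in Ezh2-deficient fibroblasts.

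Some cell type markers passed in Snf5 Ezh2-deficient fibroblasts, where 27.5% of all genes passed. The shares were 33.3% of the pericyte and vascular smooth muscle markers, 25% of the fibroblast and of the endothelial markers and 12.5% of the skeletal myoblast markers. Of the cardiomyocyte and of the platelet and megakaryocyte markers 11.1% passed. No macrophage and myeloid, erythroid or CD8 T cell marker passed by limma. Against Ezh2-deficient fibroblasts 44.4% of the 9 cardiomyocyte markers passed, 3 lower and 1 higher, beside 29.9% of all genes. Among 9 pericyte and vascular smooth muscle markers, 2 rose (Notch3 at 1.53 and Myh11, whose call, as above, was lost whichever array was left out) and 1 fell (Cspg4) in Snf5 Ezh2-deficient fibroblasts, and their mean was 7.37 to 7.47, against 7.13 to 7.43 in wild-type fibroblasts. Of 12 fibroblast markers 1 rose (Pdgfra at 1.76) and 2 fell, and of 8 skeletal myoblast markers 0 rose and 1 fell by limma (1 and 1 without adjustment). The skeletal myoblast mean was 5.28 to 5.40 in Snf5 Ezh2-deficient fibroblasts and 5.35 to 5.42 in wild-type fibroblasts, and Myod1 and Myog, which define those cells, read at most 6.05 on any MEF array. The part of these markers in the changes of the contractile genes was not tested.

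By their pattern over the 9 distinct MEF arrays, the genes most like Acta2 were Adam7 (Pearson r = 0.964), Lims2 (r = 0.957) and Cplx3 (r = 0.94), and the least like was Rfc5 (r = -0.944). Those most like Tnnt2 were Mbnl1 (r = 0.988), Pja1 (r = 0.976) and Golim4 (r = 0.975), and the least like was Btg2 (r = -0.98). These are descriptions of 9 arrays in 3 groups, and the arrays share the group differences given above.

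In CD8+ T cells the contractile genes other than Tpm1 lay at or below percentile 55.55 of the values of their arrays, and their levels are not set against those of the fibroblasts, whose arrays were normalized separately. Of the 10 genes, 1 rose in the Snf5-deficient lymphoma cells relative to wild-type CD8+ T cells, Actg2, and 0 fell, where 16.8% of all genes passed by limma in either direction (9.13% higher and 7.71% lower). Without adjustment for the number of probe sets the counts were the same. The groups overlapped for all 10 genes, while 12.8% of all genes did not overlap. The median log2 change of the 10 genes was -0.04, beside -0.07 over all genes.

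Actg2 read 6.15, 8.85, 7.18, 8.12 and 6.05 in the lymphoma cells, against a lowest of 3.29, a median of 5.16 and a highest of 6.10 on the 6 wild-type arrays. Lymphoma array 5 lay just below the highest wild-type array, and the other 4 lay above all wild-type arrays. The log2 change was 2.43 (SE 0.659, 95% confidence interval 0.984 to 3.88), a 5.40-fold difference (limma adjusted p = 0.0301). On 3 of the 6 wild-type arrays Actg2 was in the lowest 25% of values, so the fold is measured from near the floor.

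The 2 lowest Actg2 values, 3.60 and 3.29, were those of wild-type arrays 1 and 6, which read high for macrophage markers. Without these arrays the change of Actg2 was 1.74 and did not pass (limma adjusted p = 0.0607), and 0 of the 10 genes passed. At the same time, lymphoma arrays 1, 3, 4 and 5 had macrophage marker means of 9.36 to 10.2, against 7.41 on lymphoma array 2, which had the highest Actg2 level. The call also ended without lymphoma array 2 (adjusted p = 0.0641), lymphoma array 3 (0.0611), lymphoma array 4 (0.078) or wild-type array 5 (0.0533).

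On their main probe sets, Acta2 and Tpm2 were high on those same wild-type arrays. Acta2 read 5.32, 4.54, 4.89, 4.86 and 5.02 in the lymphoma cells, against a lowest of 4.94, a median of 5.43 and a highest of 8.10 in the wild-type cells, where arrays 1 and 6 gave 8.10 and 7.62. Its log2 change of -1.18 did not pass (limma adjusted p = 0.197) and was -0.30 without these 2 arrays (adjusted p = 0.252). The second Acta2 probe set went the other way on arrays 1 and 6, at 4.53 and 4.87, below the 4.96 to 5.94 of the other wild-type arrays. As a mean over its 2 probe sets Acta2 passed (-0.80, limma adjusted p = 0.0463).

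Tpm2 read 5.34, 5.66, 6.28, 4.89 and 4.67 in the lymphoma cells, against a lowest of 4.58, a median of 5.32 and a highest of 6.68 in the wild-type cells, with 6.68 and 6.54 on arrays 1 and 6. The groups overlapped (log2 change -0.16, limma adjusted p = 0.836), and without these 2 arrays the change was 0.39 (adjusted p = 0.403). On the dimmest Tpm2 probe set arrays 1 and 6 read 3.59 and 3.81, below the other wild-type arrays. On the remaining Tpm2 probe sets they read highest of the wild-type arrays. Mylk read 8.06, 5.57, 7.61, 7.17 and 7.47 in the lymphoma cells, against a lowest of 4.85, a median of 6.13 and a highest of 8.04 in the wild-type cells. It did not pass (0.86, adjusted p = 0.417; 1.65 and adjusted p = 0.0555 without wild-type arrays 1 and 6). Lymphoma array 2, the lymphoma array with the lowest macrophage marker mean, had the lowest Mylk level of the lymphoma arrays, and the part of macrophages in these values was not tested.

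**Figure D5:**
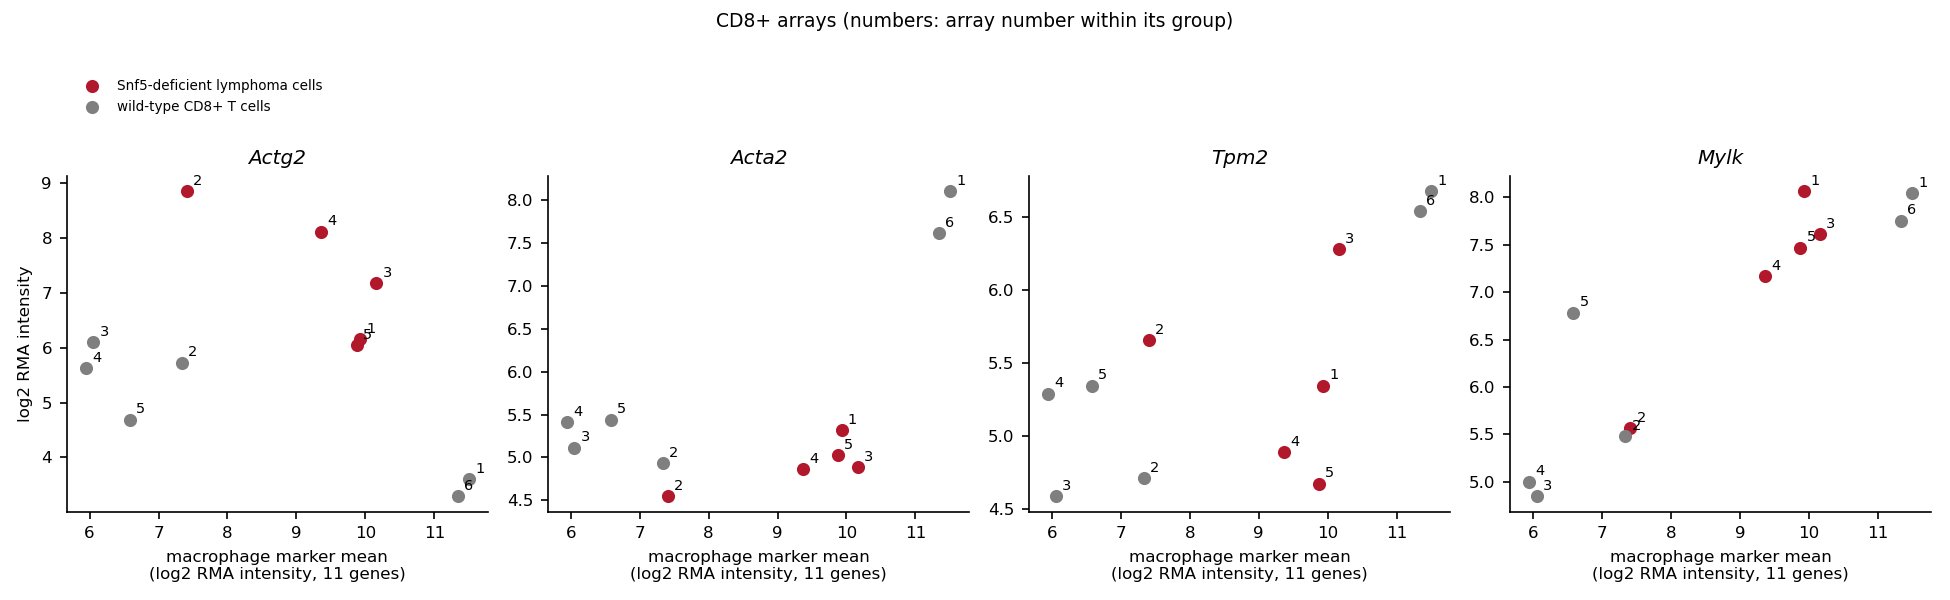
Log2 RMA intensity of Actg2, Acta2, Tpm2 and Mylk (vertical axes, each with its own range) against the mean of 11 macrophage markers (horizontal axes) on the 11 CD8+ arrays, 5 of Snf5-deficient lymphoma cells and 6 of wild-type CD8+ T cells; points are single arrays with their numbers. Each gene is drawn by its main probe set. Wild-type arrays 1 and 6, with marker means of 11.5 and 11.3, have the lowest Actg2 and the highest Acta2 and Tpm2 values.

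The other members showed small differences. Tpm1, which nonmuscle cells also use, read 11.76, 11.76, 11.51, 11.21 and 11.34 in the lymphoma cells, against a lowest of 10.71, a median of 11.39 and a highest of 12.04 in the wild-type cells (log2 change 0.17, limma adjusted p = 0.643). Myl9 read 5.70, 6.52, 7.02, 7.19 and 6.22, against a lowest of 5.29, a median of 5.90 and a highest of 6.47 (0.60, adjusted p = 0.188). In both genes the groups overlapped.

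Tagln averaged 6.83 ± 0.133 (SD, n = 5) in the lymphoma cells and 6.90 ± 0.713 (SD, n = 6) in the wild-type cells, and Acta1 averaged 5.78 ± 0.186 in the lymphoma cells and 5.98 ± 0.633 in the wild-type cells. Cnn1 was in the lowest 25% of values on all 11 arrays, and Tnnt2 on 4 of 5 lymphoma and 5 of 6 wild-type arrays, so no fold is given for either gene. The spread of Tagln and Acta1 was wider among the wild-type arrays. This held also for wild-type arrays 2 to 5, where Tagln read 6.20 to 7.77 and Acta1 read 5.62 to 6.95.

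Of the 29 other smooth muscle and SRF target genes, 2 rose and 3 fell in the lymphoma cells, 17.2% beside 16.8% of all genes. The shares were 16.7% of the 18 SRF cofactors and regulators and 8.33% of the 36 striated muscle sarcomere genes, at or below that of all genes. Of the 23 TGF-beta pathway genes 34.8% passed, with 7 lower and 1 higher, and leaving out single arrays gave 6 to 7 falls. Smad7 (log2 change -4.19, limma adjusted p = 0.00558) and Tgfbr1 (-2.51, adjusted p = 1.15e-05) were among those that fell, and Tgfb3 rose (2.00, adjusted p = 0.013). The actin crosslinker gene Actn1 (log2 change -3.52, limma adjusted p = 0.00054), the focal adhesion gene Zyx (-1.99, adjusted p = 0.000565) and Tgfb1i1 (-2.18, adjusted p = 0.00667) fell, and Fhl2 rose (2.94, adjusted p = 0.00133). Mrtfa, an SRF coactivator that responds to free actin, was 6.47-fold lower (-2.69, adjusted p = 3.21e-05), and Elk1, an SRF partner of another class, rose (1.21, adjusted p = 0.000806). Among striated muscle sarcomere genes 1 rose and 2 fell. Myl1, a myosin light chain of fast skeletal muscle, rose (4.55, limma adjusted p = 3.1e-05), at a mean of 9.75 in the lymphoma cells and 5.20 in the wild-type cells. Actn2 (-3.72, adjusted p = 0.0496) and Myom1 (-0.67, adjusted p = 0.0275) fell, and leaving out single arrays gave 0 to 3 falls in this list. Without wild-type arrays 1 and 6 the genes of these lists named so far in this paragraph all still passed in the same direction. Acvrl1, another of the 7 TGF-beta pathway genes that fell (-1.88, limma adjusted p = 0.0494), no longer passed then (adjusted p = 0.0984). Actn1 then changed by -3.96, Zyx by -1.80, Tgfb1i1 by -2.66, Fhl2 by 2.47, Mrtfa by -2.88, Elk1 by 1.25 and Myl1 by 4.47. Actn2 changed by -5.45, Myom1 by -0.62, Smad7 by -5.185, Tgfbr1 by -2.55 and Tgfb3 by 2.09. The limma adjusted p-values lay between 1.63e-05 (Mrtfa) and 0.0444 (Myom1). The remaining wild-type arrays all had lower macrophage marker means than the lymphoma arrays, which had 7.41 to 10.2. Leaving out arrays 1 and 6 therefore did not make the groups alike in these markers, and the part of macrophages was not tested. The other smooth muscle and SRF target gene that rose, Csrp1 (0.97, limma adjusted p = 0.0456), no longer passed without wild-type arrays 1 and 6 (adjusted p = 0.0623). Its call ended without 7 of the 11 arrays in turn.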

How the data were processed

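RNA of MEFs and CD8+ T cells was hybridised to Affymetrix arrays, and the authors preprocessed the scans with Robust Multichip Average (RMA), per the labels' protocols; no source used here gives its version. Each deposited value was a linear RMA intensity and was put on a log2 scale here, where the planned design had taken them as log2 values. The 10 genes and the further lists were chosen with earlier results of these data known. Without 64 control probe sets, 22626 remained for testing. Symbols came from the platform annotation, and 20351 of its gene numbers were in the RefSeq gene table. Group means were compared with limma 3.58.1 in R 4.3.3, MEFs (6 residual degrees of freedom) and CD8+ arrays (9) apart, with Benjamini-Hochberg adjustment. The 2 copies of each wild-type MEF array were merged, their offset at each probe set first taken out. The number of arrays limits the precision: the median standard error was 0.0771 for MEFs and 0.236 for CD8+ arrays. From each further list, up to 4 genes with the largest change among those that passed were named; Smtn, Lmod1, Des, Srf and Myocd in the MEFs where outside that rule, and the target and marker genes, were picked with their values in view. Simulated data with known changes served to test the steps. Alternatives were an offset of 32 before the log, quantile normalization, a trended robust prior, array weights, the mean of all probe sets, a dim-probe filter at the lowest 25%, each set alone, all 12 MEF arrays, a replicate block and leaving out each array. Leaving out wild-type CD8+ arrays 1 and 6, or Ezh2-deficient MEF arrays 2 and 3, was added after the data were seen.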

Additional observations from a re-analysis of the deposited data

Results flagged for a closer look

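For 4 contractile genes the change from wild type differed between the mutant MEF lines by the test of the difference itself, limma on the Snf5 Ezh2-deficient change minus the Ezh2-deficient change. The difference was -1.62 for Acta1 (adjusted p = 0.000659), -0.46 for Tagln (adjusted p = 0.00134), -0.73 for Mylk (adjusted p = 0.0439) and -0.73 for Tnnt2 (adjusted p = 0.000256), all on the log2 scale. The Mylk difference rested on arrays that overlap, and Tnnt2 was in the lowest 25% of values on all arrays of both lines. No CD8+ group of any of the 10 genes held a single array far enough from the next one to be singled out, in 20 groups examined. The check set the gap between an extreme array and its neighbour against the range. It could thus not flag 2 arrays that stood apart together, as with Acta2 at 8.10 and 7.62 on wild-type arrays 1 and 6. The MEF groups of 3 arrays were too small for that check.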

How the results depend on the processing

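In the Snf5 Ezh2-deficient MEFs between 4 and 6 of the 10 genes passed in all 15 alternatives, against wild type, and between 3 and 6 in all 14 against the Ezh2-deficient MEFs. In the Ezh2-deficient MEFs the 1 gene became 0 with the first set fitted alone and 0 to 1 without single arrays. In the lymphoma comparison the 1 gene became 0 with array weights, 2 with the mean of all probe sets, 0 without wild-type arrays 1 and 6, and 0 to 1 without single arrays. The median change of the 10 genes there was -0.0469 to 0.117 without single arrays, so its sign depended on which array was left out. The 432 genes passing in the Ezh2-deficient MEFs became 907 with array weights, 851 with all 12 arrays, 258 with the first set alone, 213 with the replicate block and 117 without Ezh2-deficient arrays 2 and 3, and 87 to 443 without single arrays (279, 87 and 125 without wild-type arrays 1, 2 and 3; 110 and 240 without Ezh2-deficient arrays 1 and 3). The 3704 genes between the mutant lines became 1968 with all 12 arrays, and the 2088 in the lymphoma cells became 3227 with array weights and 3273 without wild-type arrays 1 and 6. The fit of all 12 arrays entered both copies of each wild-type MEF hybridisation as if they were separate. The causes of these shifts were not tested.

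The replicate block, which pairs arrays of the same number, left 1 gene in the Ezh2-deficient, 5 in the Snf5 Ezh2-deficient and 1 in the lymphoma comparison, and 3 in place of 4 between the mutant lines, where Mylk did not pass (adjusted p = 0.0528). Same-numbered MEF arrays deviated together with correlations of -0.274 to 0.179 and CD8+ arrays with 0.0835 to 0.352. Each Ezh2-deficient array correlated best with the wild-type array of its own number (r = 0.137, 0.179 and 0.00971). In the other comparisons not every array did. Whether arrays of the same number belong together was therefore not settled. Mylk and Cnn1 also lost their calls with an offset of 32 (adjusted p = 0.0658 for Mylk between the mutant lines and 0.0521 for Cnn1 against wild type) and with a trended robust prior (0.0957 and 0.0944), and Actg2 in the lymphoma cells with array weights (0.0506). Mylk did not pass between the mutant lines with all 12 arrays (0.159). RMA values hold no detection calls, so changes of genes near the floor, Tnnt2 above all, are limited by signal over background.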
